A study of Homo sapiens with 18 samples.

Results

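The 46 genes described here lie in the distal part of the long arm of chromosome 8 (distal 8q), from chr8:134249418 to chr8:145688254 of GRCh37, a stretch of 11.4 Mb that reaches nearly to the end of the arm. They were chosen by position and measured level, as the rows of the count table whose gene starts in the stretch and whose mean over all 18 libraries was at least 8 CPM (reads counted for the gene per 1000000 of its library). The table held 57736 genes, and 191 of them started in the stretch, of which 145 had a lower mean, 78 of them without a single count. The stretch itself had been selected on the measured levels of koCARM1 against WT, because its genes were higher in the CARM1 knockout libraries of these same data, so the values of the knockout against wild type are given as a description and without a test. The minimum level was also computed with the knockout libraries included. In the 12 other libraries 37 of the 46 genes had a mean of 8 CPM or more, and the other 9 (NDRG1, SLC45A4, ARC, LY6K, NAPRT, NRBP2, ENSG00000271698, FBXL6 and SLC39A4) reached the minimum through the knockout. The member with the lowest mean was ZNF623 (8.77 CPM), and the gene just under the minimum was ZFAT (7.82 CPM), with log2 fold changes in the knockout of 0.24 and 1.25 under ctr and of 0.41 and 1.39 under TM. Of the 46 genes, 42 were protein coding. Apart from NDRG1, at the start of the stretch, and ENSG00000253288, 4.57 Mb after it, every member started at least 7.2665 Mb after it. ENSG00000253288 was lower in koCARM1 than in WT (log2 fold changes −1.28 and −0.90 under ctr and TM). The members thus describe mainly the last part of the stretch.

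By their labels all libraries came from A1847 cells, an established line of human epithelial ovarian cancer, in 3 genotypes: wild type (WT), CARM1 knockout (koCARM1) and cells with a short hairpin RNA against XBP1 (shXBP1). Each genotype was left as control (ctr) or given tunicamycin (TM), which the study's methods put at 5 μg/ml for 8 h, with 3 libraries per condition and 18 in all. The knockout was made with a lentiviral CRISPR vector carrying 1 guide and puromycin selection. Whether it was a clone or a pool is not said. The study describes its replicates in general as biologically independent experiments, and the labels do not say which cultures the libraries of a condition came from, so p-values measure the spread between these libraries.

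The distal long arm of chromosome 8 is gene dense and is one of the stretches most often present in extra copies in ovarian carcinomas. Its genes belong to no single pathway: they encode parts of the translation, splicing and RNA decay machineries, enzymes of lipid anchoring and glycosylation, adhesion and polarity proteins, transcription factors, transporters and mitochondrial proteins. CARM1 is an arginine methyltransferase that acts as a co-activator of transcription, XBP1 is a transcription factor of the unfolded protein response, and tunicamycin blocks the glycosylation of new proteins in the endoplasmic reticulum and so sets off that response. Copy number was not measured in these libraries.

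The libraries held 9367462 to 13917212 counts. CARM1 had 160.0 to 165 CPM in WT and 71.6 to 77.7 CPM in koCARM1 under ctr, and 133 to 139.9 against 67.4 to 76.2 under TM, so that reads of the targeted gene were fewer in the knockout but not absent. These are RNA levels, whereas the study examined CARM1 protein in its control and knockout cells by immunoblot. XBP1 was at 43.2 to 51.1 CPM in WT and 24.1 to 26.5 in shXBP1 under ctr, and at 148 to 153 against 69.0 to 73.7 under TM. The 6 koCARM1 libraries stood apart from the rest. The correlation of log2 levels across genes, which are not independent replicates, was 0.73 to 0.77 between a koCARM1 library and a WT or shXBP1 library, 0.96 to 0.99 between WT and shXBP1 and 0.99 between libraries of the same group. Of 11 markers of ovarian and other epithelia the summed level was 2267 to 2782 CPM in koCARM1 and 130.5 to 485 in the other libraries, where 6 or 7 of the 11 had at most 3 counts in each library of a group, against 1 or 2 in koCARM1. PAX8 was at 39.9 to 65.2 CPM in koCARM1 and at 0 to 0.166 elsewhere, KRT7 at 368 to 433 against 0 to 0.917, and MUC16 was at 0 in all 18 libraries. KRT8 (627 to 760 CPM against 17.8 to 72.0) and KRT18 (1185 to 1495 against 108 to 416) were expressed in every library. EPCAM, WFDC2 and MSLN were higher in koCARM1 too. WT1 was at most 1.03 CPM there, CLDN3 at most 0.601 and CLDN4 at most 0.544, where CLDN4 was at most 0.387 elsewhere. Of 5 fibroblast markers the summed level was 187 to 501 CPM in koCARM1 and 583 to 889.8 elsewhere, COL1A2 being at 0 to 2.70 CPM in koCARM1 and 575 to 867 elsewhere, and COL1A1 at 183 to 494 against 4.47 to 17.3. Markers of blood cells summed to at most 3.44 CPM and those of endothelium to at most 0.318. Whether the koCARM1 libraries came from the same line as the others, as their labels say, was not tested, and neither was what else separates them. Such a difference would be part of every value of koCARM1 against WT or shXBP1 given here. What separates these libraries cannot be told apart from the loss of CARM1 in any of those values. In bulk RNA, moreover, fewer cells of a kind and less RNA per cell cannot be told apart.

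Most of the 46 genes had more RNA in koCARM1 than in WT. Under ctr the median log2 fold change of koCARM1 against WT was 1.11, with the middle of the genes (lower to upper quartile) between 0.58 and 1.72, and under TM it was 1.37 (0.88 to 2.02). By comparison the median of all 17317 genes tested was −0.030 and −0.016. Over the 37 genes that had a mean of 8 CPM without the knockout the medians were 0.85 and 1.14, which are 1.80- and 2.20-fold on the linear scale. With edgeR's quasi-likelihood test at a Benjamini-Hochberg adjusted p of 0.05, 40 of the 46 were called higher under ctr, where 37.5% of all genes tested were, and 2 were called lower, where 36.9% were. Under TM 43 were called higher (38.4% of all genes) and 2 lower (36.8%). In 41 genes all 3 koCARM1 libraries lay above all 6 WT and shXBP1 libraries under ctr, where 36.6% of all genes did, and in 43 under TM (35.8% of all genes), 41 genes being so under both. Nothing is read from these counts, since the contrast had chosen the stretch. Scaled by library totals in place of TMM factors, the median of all genes moved to −0.20 under ctr and −0.18 under TM, and those of the members to 0.94 and 1.21. The members lay 1.14 and 1.39 above the median of all genes on either scale. The log2 fold change was larger under TM than under ctr in 36 of the 46.

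**Figure D1:**
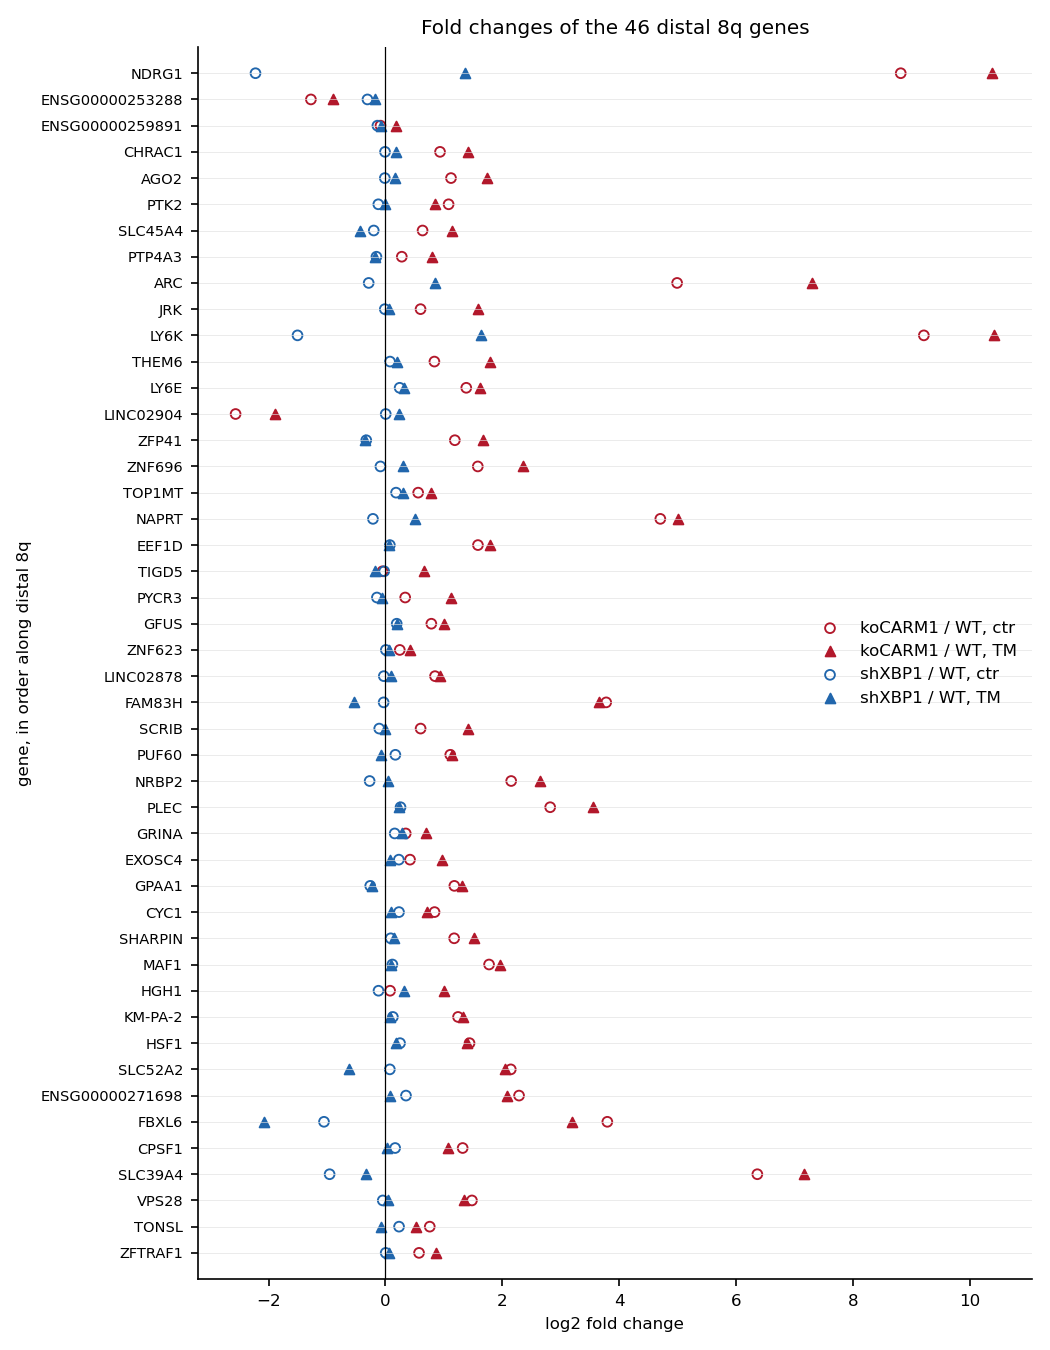
Log2 fold change of each of the 46 genes in koCARM1 (red) and shXBP1 (blue) against WT, under ctr (open circles) and TM (filled triangles), with the genes from top to bottom in their order along distal 8q. Most red symbols lie to the right of 0, with medians of 1.11 under ctr and 1.37 under TM, and most blue symbols lie near 0.

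The levels were also taken library by library, as a description, since koCARM1 against WT in these libraries had chosen the stretch. For the 37 genes at 8 CPM or more without the knockout, the log2 ratio of each gene to its mean over the 3 WT libraries of the same treatment was taken with 0.5 CPM added to both, and the median computed in each library. It was 0.88, 0.98 and 0.94 in the koCARM1 ctr libraries and 1.31, 1.22 and 1.13 in the koCARM1 TM libraries. In the 6 shXBP1 libraries it was −0.052 to 0.068 and in the 6 WT libraries −0.083 to 0.043. The koCARM1 libraries did not overlap with the others, from which nothing is read, and the shXBP1 libraries lay within or next to the range of WT. These 37 genes took up 0.17% to 0.22% of the counts in the 12 WT and shXBP1 libraries and 0.41% to 0.43% in the koCARM1 libraries.

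**Figure D2:**
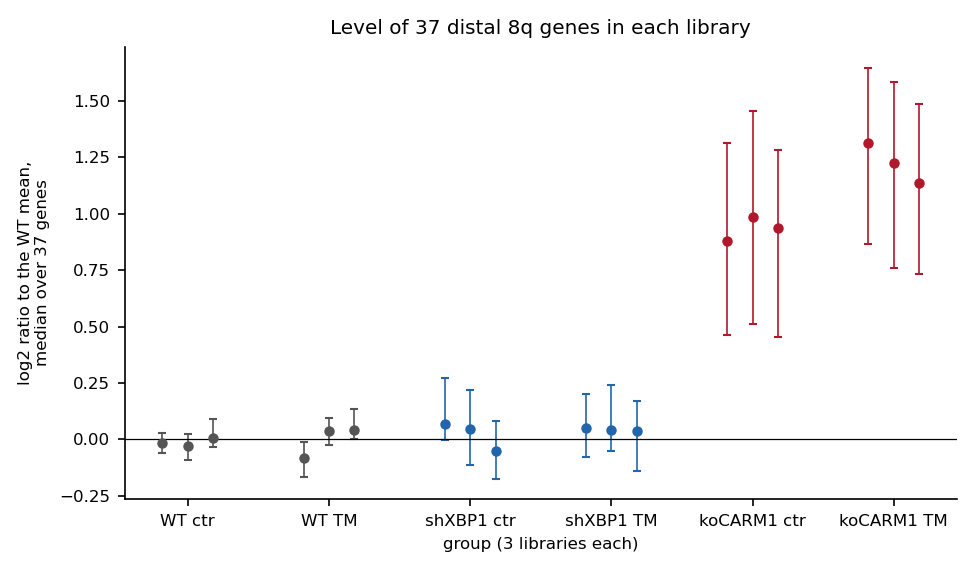
Median over 37 distal 8q genes of the log2 ratio to the WT mean of the same treatment, 1 point for each of 18 libraries, with bars from the lower to the upper quartile of the genes. The 6 koCARM1 libraries lie between 0.88 and 1.31 and the 12 others between −0.083 and 0.068. The stretch had been chosen on koCARM1 against WT in these same libraries, so the gap is a description.

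The genes with the highest ratios were silent or nearly so in WT. LY6K (chr8:143781529-143786545), a lipid-anchored surface protein of the LY6 family known as a cancer-testis antigen, was at 0.542, 2.36 and 2.54 CPM in WT and 999, 1241 and 1182 CPM in koCARM1 under ctr. Under TM it was at 0.915, 0.0825 and 0.684 CPM in WT and 774, 769 and 789.9 in koCARM1. The log2 fold changes were 9.21 and 10.41, and no koCARM1 library came near a WT or shXBP1 library, the latter being at 0 to 2.47 CPM. NDRG1 (chr8:134249418-134314265), a stress- and hypoxia-responsive protein of vesicle traffic, stands at the start of the stretch. It had 1 to 3 counts in each WT library under ctr and 1 to 2 under TM, and 0 to 6 in the shXBP1 libraries. In koCARM1 it was at 75.96, 69.8 and 69.6 CPM under ctr and at 155, 157 and 156 CPM under TM.

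SLC39A4 (chr8:145635126-145642228), the zinc importer ZIP4, was at 2.55, 2.95 and 2.41 CPM in WT and 217, 227 and 229 CPM in koCARM1 under ctr. Under TM the values were 0.998, 1.403 and 1.29 and 183, 181 and 167 CPM. The log2 fold changes were 6.36 and 7.16, against 0.377 to 2.06 CPM over the shXBP1 libraries. ARC (chr8:143692410-143695840), an immediate early gene best known from neurons, was at 0.928, 0.958 and 1.004 CPM in WT and 31.1, 35.2 and 29.3 in koCARM1 under ctr, and at 0.333, 0.495 and 0.152 and 52.7, 50.7 and 52.8 CPM under TM. NAPRT (chr8:144656955-144660819), the enzyme that starts NAD synthesis from nicotinic acid, was at 1.702, 1.62 and 1.21 CPM in WT and 42.3, 40.9 and 37.9 in koCARM1 under ctr. Under TM it was at 1.08, 1.32 and 1.899 and 52.4, 43.7 and 42.99 CPM, log2 fold changes of 4.70 and 4.998. In these 3 genes, too, the groups were far apart and shXBP1 was at the level of WT.

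**Figure D3:**
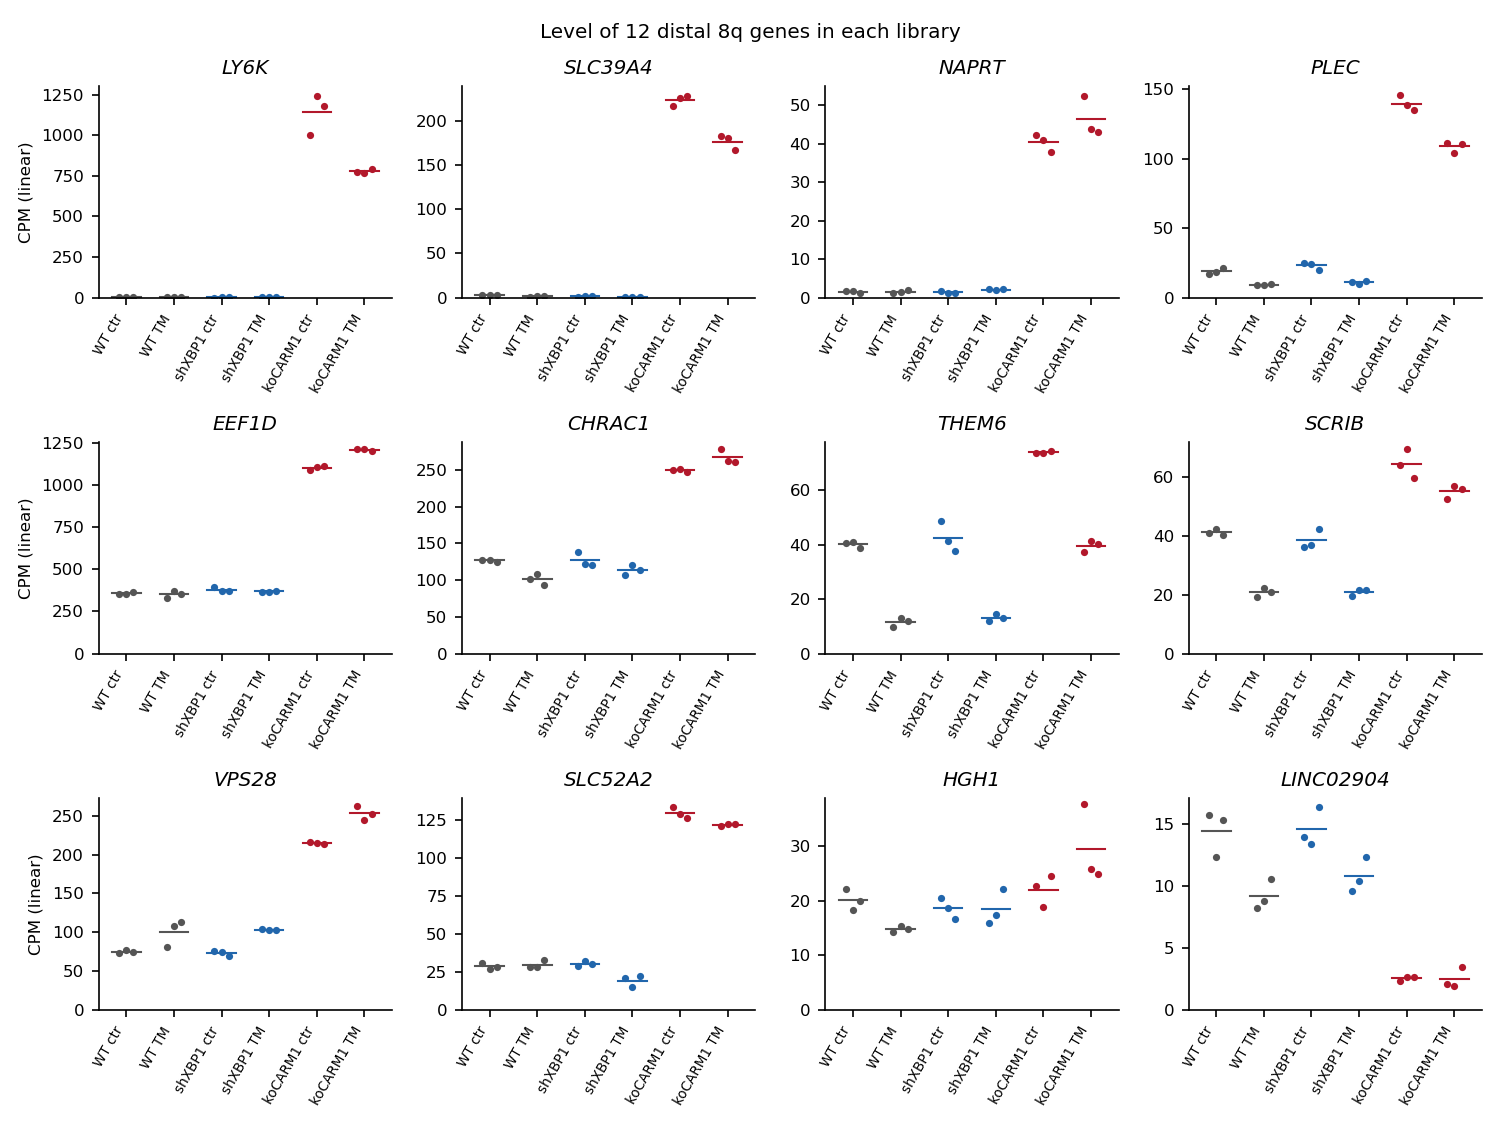
Level of 12 distal 8q genes in each library (points, CPM on linear axes that start at 0; bars are group means of 3 libraries) in WT (grey), shXBP1 (blue) and koCARM1 (red) under ctr and TM. In 10 of the 12 genes all koCARM1 libraries lie above the WT and shXBP1 libraries of the same treatment, HGH1 overlaps under ctr, and LINC02904 is lower in koCARM1. Of all genes tested 36.6% lie so under ctr and 35.8% under TM. The 12 genes were picked from the 46 and the contrast had chosen the stretch, so nothing is read from the count. LY6K, SLC39A4 and NAPRT reached the minimum of 8 CPM through the knockout.

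The 7 genes of RNA processing and translation were led by MAF1, the repressor of RNA polymerase III, with log2 fold changes of 1.77 and 1.95 under ctr and TM (68.1 to 70.5 CPM in WT and 233 to 253 in koCARM1 under ctr). EEF1D, a subunit of the nucleotide exchange factor of translation elongation, was at 354, 351 and 365 CPM in WT and 1088, 1105 and 1113 CPM in koCARM1 under ctr, and at 332, 372 and 351 and 1209.9, 1209.6 and 1203 under TM. Its log2 fold changes were 1.58 and 1.79, given as a description. CPSF1, a subunit of the cleavage and polyadenylation machinery, was at 1.32 and 1.08, the splicing factor PUF60 at 1.11 and 1.14, and AGO2, the slicer of RNA interference, at 1.12 and 1.74. EXOSC4, a core subunit of the RNA exosome, was at 0.42 and 0.96. HGH1, a chaperone adaptor for an elongation factor, differed by 0.079 under ctr, where its groups overlapped and it was not called, and by 0.996 under TM. Of the 7 genes 6 were called higher under ctr, where 37.5% of all genes tested were, and 7 under TM (38.4%), with medians of 1.12 and 1.14. As above, the contrast had chosen the stretch and nothing is read from such counts, here or in the groups that follow.

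Of the 7 genes of the secretory pathway, glycosylation and lipid anchoring all 7 were called higher under both treatments (37.5% of all genes under ctr and 38.4% under TM). Beside LY6K and NDRG1 these were VPS28, a subunit of the endosomal sorting complex ESCRT-I, with log2 fold changes of 1.48 and 1.34, and LY6E, a further lipid-anchored LY6 protein, with 1.38 and 1.61. GPAA1, a subunit of the transamidase that attaches lipid anchors to proteins, was at 1.18 and 1.30. GFUS, which makes GDP-fucose, was at 0.78 and 0.99, and GRINA, a membrane protein of the Golgi and endoplasmic reticulum linked to calcium homeostasis, at 0.35 and 0.69. GRINA was among the smallest of the differences called, at 97.6, 96.3 and 93.5 CPM in WT and 132, 119 and 125 in koCARM1 under ctr, with no overlap between the groups.

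All 4 genes of adhesion, polarity and cytoskeleton were called higher under both treatments (37.5% of all genes under ctr and 38.4% under TM). FAM83H (chr8:144806103-144820404), which organises keratin filaments, was at 7.504, 7.66 and 13.1 CPM in WT and 119.6, 149 and 137 in koCARM1 under ctr, and at 7.402, 12.3 and 12.5 and 132, 137 and 133 under TM. PLEC (chr8:144989321-145050902), plectin, which ties intermediate filaments to hemidesmosomes, was at 17.2, 18.6 and 21.6 CPM in WT and 145, 138 and 135 in koCARM1 under ctr. Under TM it was at 8.898, 9.33 and 9.799 and 112, 104 and 110.4 CPM. The log2 fold changes of FAM83H were 3.78 and 3.65 and those of PLEC 2.82 and 3.54, against 1.08 and 0.85 for PTK2, the focal adhesion kinase, and 0.60 and 1.41 for the polarity scaffold SCRIB. The epithelial keratin KRT7 given above was higher in koCARM1 as well, and the part of the marker difference in the levels of FAM83H and PLEC was not tested.

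Among the 5 genes of ubiquitin, cell death and signalling all 5 were called higher under both treatments (37.5% of all genes under ctr and 38.4% under TM). FBXL6 (chr8:145579091-145583036), an F-box protein of ubiquitin ligases, was at 0.696, 0.589 and 3.82 CPM in WT and 23.2, 29.02 and 24.3 in koCARM1 under ctr, and at 4.49, 7.18 and 12.4 and 79.8, 69.1 and 73.1 CPM under TM. Its span overlaps those of SLC52A2 and ENSG00000271698, and how the counting used strand is not given in the sources used here, so reads of the 3 genes may have been divided between them. NRBP2, a pseudokinase, had log2 fold changes of 2.15 and 2.65, SHARPIN, a subunit of the linear ubiquitin chain assembly complex, of 1.18 and 1.52, and PTP4A3, the phosphatase PRL-3, of 0.28 and 0.80. PTP4A3 was close to WT under ctr, at 14.8 to 16.7 CPM against 11.5 to 13.8.

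The 4 zinc finger and heat shock factors were at log2 fold changes of 1.58 and 2.36 for ZNF696, 1.44 and 1.40 for HSF1, the master regulator of the heat shock response, 1.19 and 1.66 for ZFP41, and 0.24 and 0.41 for ZNF623, which was not called under ctr. Of the DNA replication and repair genes, CHRAC1, a histone-fold subunit of a chromatin remodelling complex, was at 0.93 and 1.41, TONSL, which acts in the repair of replication forks, at 0.76 and 0.52, and the mitochondrial topoisomerase TOP1MT at 0.56 and 0.78. Of the metabolic enzymes, CYC1, the cytochrome c1 subunit of the respiratory chain, was at 0.84 and 0.71, and PYCR3, an enzyme of proline synthesis, at 0.34 and 1.12. The riboflavin transporter SLC52A2 was at 2.14 and 2.05, and the solute carrier SLC45A4 at 0.63 and 1.14. All members of the repair, metabolic and transporter groups, 3 in each, were called higher under both treatments (37.5% of all genes under ctr and 38.4% under TM).

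A few genes of the stretch did not follow. LINC02904 (chr8:144120626-144142101), a long non-coding RNA, was lower in koCARM1, at 2.33, 2.600 and 2.63 CPM against 15.7, 12.3 and 15.3 in WT under ctr. Under TM it was at 2.06, 1.905 and 3.42 against 8.23, 8.75 and 10.6 CPM. The long non-coding RNA ENSG00000253288 (chr8:138821687-139095900) was lower as well, at 6.91, 6.62 and 6.76 CPM in koCARM1 against 16.3, 15.99 and 15.4 in WT under ctr and 6.86, 5.79 and 5.88 against 12.6, 12.9 and 9.34 under TM. The log2 fold changes were −2.56 and −1.89 for the former and −1.28 and −0.90 for the latter, with no overlap between koCARM1 and WT. ENSG00000259891 (chr8:141515912-141518142), a non-coding RNA beside CHRAC1, was at 20.4, 19.96 and 17.98 CPM in koCARM1 and 18.8, 21.3 and 20.2 in WT under ctr, and its groups overlapped under both treatments. TIGD5 (chr8:144680001-144685394), a gene derived from a transposon of the tigger family, was at 21.5, 21.1 and 23.6 against 20.9, 22.2 and 23.1 CPM under ctr, where the groups overlapped, and at 19.9, 19.2 and 18.3 against 12.1, 12.5 and 12 CPM under TM, where they did not. The other 6 of the 10 genes on no function list (JRK, THEM6, LINC02878, KM-PA-2, ENSG00000271698 and ZFTRAF1) were called higher under both treatments, against 37.5% of all genes under ctr and 38.4% under TM, with log2 fold changes from 0.57 to 2.29 under ctr.

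The shXBP1 cells, which carry a short hairpin RNA in place of the knockout, gave a comparison that had not chosen the stretch, though it shares the WT libraries. The median log2 fold change of the 46 genes in shXBP1 against WT was −0.011 under ctr and 0.068 under TM, against −0.0032 and 0.00084 for all genes tested. Under ctr no member was called higher (2.07% of all genes were) and 1 was called lower (3.03%) by edgeR, the same counts as with DESeq2. A single fit of all libraries called 2 higher and 3 lower and no filter called 3 and 2. With 1 library left out the calls ran from 0 to 3 higher, the most without WT replicate 3, and from 0 to 1 lower. At an unadjusted p under 0.05 edgeR gave 7 higher and 5 lower. Over the 37 genes at 8 CPM or more the fold changes ran from −0.33 to 0.26 on the log2 scale. The member called was GPAA1, at 51.2, 48.5 and 51.2 CPM in shXBP1 and 59.3, 60.8 and 59.9 in WT, without overlap (log2 fold change −0.26, standard error 0.0622, adjusted p = 0.0243 by edgeR's quasi-likelihood test). The call did not hold when WT replicate 1 or 2 or shXBP1 replicate 2 or 3 was left out (adjusted p 0.0643 to 0.137).

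Under TM 2 members were called higher in shXBP1 than in WT (6.99% of all genes were) and 4 lower (8.55%). SLC52A2 was at 20.7, 14.8 and 21.9 CPM in shXBP1 and 27.9, 27.8 and 32.97 in WT (log2 fold change −0.62 ± 0.126, standard error, adjusted p = 0.00311 by edgeR). GRINA was higher in shXBP1, at 75.5, 79.98 and 76.1 against 59.9, 62.7 and 67.2 CPM (0.29 ± 0.0632, adjusted p = 0.00576), and so was TOP1MT, at 46.3, 43.3 and 42.4 against 36.4, 35.3 and 36.01 CPM (0.30 ± 0.0717, adjusted p = 0.0106). In these 3 genes the groups did not overlap, from which nothing is read, since they were picked by their calls. FBXL6 reached the minimum of 8 CPM through the knockout, and its span overlaps that of SLC52A2. It was at 4.66, 0 and 0.662 CPM in shXBP1 and 4.49, 7.18 and 12.4 in WT, where the highest shXBP1 library lay above the lowest WT library. Its adjusted p was 0.0286 with edgeR and 0.427 with DESeq2, 0.197 without WT replicate 3 and 0.116 without shXBP1 replicate 3. GPAA1 was again lower (−0.23 ± 0.0721, adjusted p = 0.0397 by edgeR, and 0.0823 to 0.175 without WT replicate 2 or 3 or any one shXBP1 replicate, and 0.0881 with DESeq2). ZFP41 was at 12.6, 13.3 and 12.2 CPM in shXBP1 and 15.5, 16.3 and 16.9 in WT (−0.35 ± 0.111, adjusted p = 0.0424 by edgeR), a call lost whichever of the 6 libraries was left out (0.0527 to 0.152), and also with DESeq2 (0.127), without a filter (0.0750) and with a replicate block (0.0526). Set against shXBP1 in place of WT, the koCARM1 libraries gave medians of 1.12 under ctr and 1.29 under TM, with 39 members called higher under ctr (38.3% of all genes) and 43 under TM (38.4%). This comparison has the same koCARM1 libraries and is given as a description.

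Tunicamycin lowered more of these genes than it raised in WT cells. Of the 46 genes 22 fell (19.9% of all genes tested did) and 5 rose (22% of all genes), with a median log2 fold change of −0.13 (−0.27 to −0.036 over the alternatives), against 0 for all genes. With 1 library left out 17 to 18 fell and 5 to 7 rose, and with DESeq2 17 fell and 4 rose. Among the 10088 genes tested with a mean of 8 CPM or more, as the members had, 27.6% fell and 30.6% rose. Of the 37 members at that mean without the knockout 18 fell and 4 rose. With library totals in place of TMM factors 22 members fell and 4 rose, while the split of all genes turned from 3808 raised and 3450 lowered to 3049 raised and 4329 lowered. The largest fall in WT was that of THEM6, a member of the thioesterase superfamily, from 40.6, 41.2 and 38.7 CPM under ctr to 9.73, 13.04 and 11.9 under TM (log2 fold change −1.78 ± 0.105, adjusted p = 9.44e-10 by edgeR). SLC39A4 fell from 2.55, 2.95 and 2.41 to 0.998, 1.403 and 1.29 CPM (−1.08 ± 0.292, adjusted p = 0.00676). JRK, a DNA-binding protein related to transposases, PLEC, SCRIB and AGO2 fell by 1.04, 1.02, 0.98 and 0.90 on the log2 scale. In all of these genes the ctr and TM libraries did not overlap. They were picked from the genes called, and the share of all genes without overlap was not counted, so nothing is read from it. SLC39A4, LY6K and ARC reached the minimum of 8 CPM through the knockout. The falls of LY6K and ARC (log2 fold changes −1.68 and −1.54, adjusted p = 0.0348 and 0.0336 by edgeR) rested on 1 to 38 and 2 to 15 counts a library. That of LY6K was lost without WT TM replicate 2 or 3 or WT ctr replicate 2 or 3 (adjusted p 0.0595 to 0.144). That of ARC was lost without WT TM replicate 1 or 3 or any one WT ctr replicate (0.0634 to 0.131) and with DESeq2 (0.101).

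The 5 genes that rose with TM in WT were FBXL6, VPS28, CPSF1, MAF1 and HSF1. FBXL6 went from 0.696, 0.589 and 3.82 to 4.49, 7.18 and 12.4 CPM (log2 fold change 2.20 ± 0.475, adjusted p = 0.00125 by edgeR), with wide spread in both groups. It reached the minimum of 8 CPM through the knockout, and its span overlaps that of SLC52A2. VPS28 went from 72.9, 76.99 and 74.4 to 80.4, 108 and 113 CPM (0.44 ± 0.0966, adjusted p = 0.00154), CPSF1 from 50.1, 50.6 and 54.98 to 58.5, 70.1 and 68.6 (0.35 ± 0.0791, adjusted p = 0.00170) and MAF1 from 68.1, 68.1 and 70.5 to 75.3, 86.6 and 89.1 (0.29 ± 0.0713, adjusted p = 0.00330). None of the 5 overlapped between ctr and TM except HSF1, which was at 41, 40.96 and 43.4 CPM under ctr and 51.98, 43.3 and 51.96 under TM (0.24 ± 0.0825, adjusted p = 0.0254 by edgeR). Nothing is read from the lack of overlap in genes picked by their calls. The call of HSF1 was lost with DESeq2 (adjusted p = 0.0622), with library totals (0.166) and without WT TM replicate 1 or 3 or WT ctr replicate 1 or 2 (0.0737 to 0.151).

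In shXBP1 cells 14 members fell with TM (19% of all genes did) and 4 rose (19.2%), with a median of −0.17 (−0.22 to −0.049 over the alternatives, the latter with a minimum of 4 CPM, and −0.090 without shXBP1 ctr replicate 1). Among the 10088 genes tested with a mean of 8 CPM or more, 27.4% fell and 27.3% rose, so the falls were near that share. Of the 14 members that fell, 13 had also fallen in WT. The share of all genes that fell in both was not counted, so nothing is read from this overlap. THEM6 fell by 1.70, PLEC by 1.08, TIGD5 by 1.03 and JRK by 1.01 on the log2 scale, where the falls in WT were 1.78, 1.02, 0.84 and 1.04. The 14th was SLC52A2. Of the 4 that rose, VPS28, MAF1 and LINC02878 did so by 0.49, 0.25 and 0.27, and NDRG1 went from 0 to 1 counts a library to 2 to 6. The interaction of shXBP1 with TM, which tests whether the response differed from that in WT, was called above 0 in no member (0.364% of all genes) and called below 0 in 1 (1.67%) by edgeR, the same counts as with DESeq2, and in 3 and 1 at an unadjusted p under 0.05. The member called was SLC52A2, which went from 28.4, 31.9 and 30.1 CPM under ctr to 20.7, 14.8 and 21.9 under TM in shXBP1 and from 30.9, 26.7 and 27.9 to 27.9, 27.8 and 32.97 in WT. The interaction term was −0.72 ± 0.161 on the log2 scale (adjusted p = 0.0198 by edgeR's quasi-likelihood test). It was lost without WT TM replicate 3, WT ctr replicate 2 or shXBP1 ctr replicate 2 (adjusted p 0.0586 to 0.0785). The span of SLC52A2 overlaps that of FBXL6, and reads may have been divided between them, as given above.

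In koCARM1 cells more of these genes rose with TM than fell. Of the 46 genes 20 rose with TM (20.6% of all genes did) and 10 fell (18.8%), with a median log2 fold change of 0.087. Among the 10088 genes tested with a mean of 8 CPM or more, 29.1% rose and 25% fell. With 1 library left out 19 to 21 members rose and 9 to 10 fell, and with DESeq2 19 rose and 8 fell. In a single fit of all 18 libraries 12 rose, and with library totals 18 rose and 13 fell, while the split of all genes turned from 3572 raised and 3264 lowered to 2870 raised and 4054 lowered. Of the 22 genes that fell in WT 9 fell in koCARM1 too, among them THEM6, from 73.9, 73.6 and 74.5 to 37.3, 41.2 and 40.4 CPM (log2 fold change −0.86), LY6K (−0.52), PLEC (−0.33), SLC39A4 (−0.30) and AGO2 (−0.30). CHRAC1, ARC, ZNF696, PYCR3 and HGH1, 5 genes that fell in WT, rose in koCARM1. NDRG1 and FBXL6 rose the most, by 1.15 and 1.57 on the log2 scale, and 4 of the 5 genes that rose in WT (FBXL6, VPS28, MAF1 and HSF1) rose in koCARM1 as well. The shares of all genes called so in both genotypes were not counted, so nothing is read from these overlaps.

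**Figure D4:**
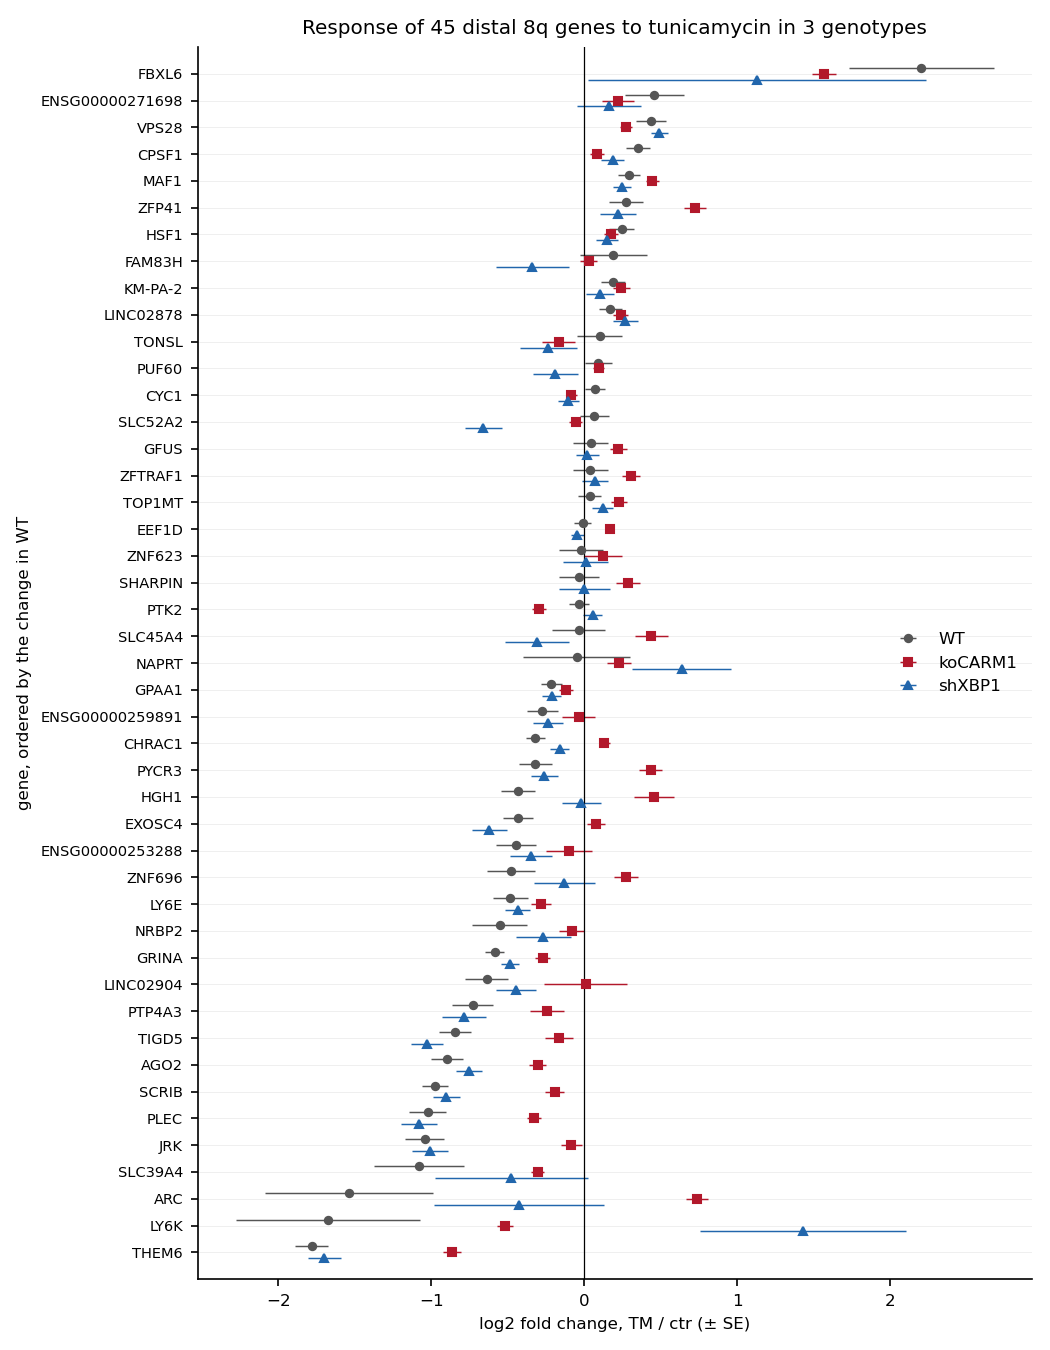
Log2 fold change of TM against ctr (points, with bars of ± 1 standard error) in WT (grey circles), koCARM1 (red squares) and shXBP1 (blue triangles), for 45 of the 46 genes in the order of the change in WT. NDRG1 is left out, since it had at most 6 counts in any WT or shXBP1 library. THEM6, JRK, PLEC and SCRIB lie at −1.78, −1.04, −1.02 and −0.98 in WT, at −1.70, −1.01, −1.08 and −0.90 in shXBP1 and at −0.86, −0.085, −0.33 and −0.19 in koCARM1, whereas LY6K lies at −1.68 in WT and at 1.43 in shXBP1, where it was not called.

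The difference between the responses of koCARM1 and WT, the interaction term of the fit, is the difference of the contrasts that had chosen the stretch, so it is given as a description and without p. The term was above 0 in 35 of the 46 genes, with a median of 0.27. At the adjusted threshold it was called above 0 in 16 (10.5% of all genes tested) and below 0 in 2 (12.4%). Of the 37 genes with a mean of 8 CPM without the knockout it was called above 0 in 14 and below 0 in 2. Of all 10088 genes with a mean of 8 CPM or more the term was called above 0 in 1563 and below 0 in 1821, and of the 308 other chromosome 8 genes at that level in 35 and 64. THEM6 fell less in koCARM1 than in WT, with an interaction term of 0.90 ± 0.116 on the log2 scale (± standard error). SCRIB went from 41.1, 42.4 and 40.2 CPM to 19.04, 22.4 and 20.97 in WT and from 64.2, 69.3 and 59.7 to 52.4, 56.9 and 55.9 in koCARM1 (term 0.76 ± 0.105). JRK went from 28.3, 28.6 and 26.7 to 11.9, 16.8 and 11.5 CPM in WT and from 40.7, 44.6 and 45.7 to 40.3, 41.3 and 38.5 in koCARM1, so that it fell in WT and overlapped between treatments in koCARM1 (term 0.94 ± 0.145). CHRAC1 went down from 128, 128 and 124 to 101, 108 and 93.4 CPM in WT and up from 250.2, 251 and 247 to 279, 261 and 260.4 in koCARM1 (term 0.43 ± 0.0709).

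PLEC and ARC had terms of 0.68 ± 0.114 and 2.26 ± 0.380. That of ARC came from 2 to 15 counts a library in WT, and ARC and SLC39A4 reached the minimum of 8 CPM through the knockout. The other 10 genes called above 0 were AGO2, PTP4A3, ZFP41, ZNF696, TIGD5, PYCR3, GRINA, EXOSC4, HGH1 and SLC39A4, with terms from 0.29 to 0.87. The 2 called below 0 were PTK2, which fell with TM in koCARM1 and was not called in WT (term −0.28 ± 0.0749), and CPSF1, which rose in WT and was not called in koCARM1 (term −0.29 ± 0.0956). A term above 0 stands for a log2 fold change of koCARM1 against WT that was larger under TM than under ctr. Each comparison was fitted to its own groups, so the match is not exact (35 terms above 0 and 36 larger fold changes). The interaction and the larger fold changes under TM given above are therefore not separate findings. In this design the koCARM1 libraries differ from the others in the markers named above under both treatments, and the part of that difference in the interaction was not tested.

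Seen along chromosome 8, the higher level in koCARM1 was not limited to the stretch. The nearest gene before it with a mean of 8 CPM or more, PHF20L1 (chr8:133787604-133861052), had log2 fold changes of 1.53 and 1.43 under ctr and TM, and the nearest after it, KIFC2 (chr8:145691426-145699585), of 2.87 and 2.76. In the stretch of the same length just before it 24 genes had a median log2 fold change of 1.15 under ctr and 1.09 under TM, and the 12 genes between its end and the end of the chromosome 1.05 and 1.60. The 40 genes that lay between 91.5 and 102.9 Mb before the start of the stretch, on the short arm, had medians of 0.87 and 0.84. In the other stretches of this length the medians ran from −0.39 to 0.68. Over all 308 other chromosome 8 genes at 8 CPM or more the medians were 0.32 and 0.34, with 173 called higher and 90 lower under ctr, and for shXBP1 they were −0.0042 and 0.014. These values come from the contrast that singled the stretch out and carry no test.

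**Figure D5:**
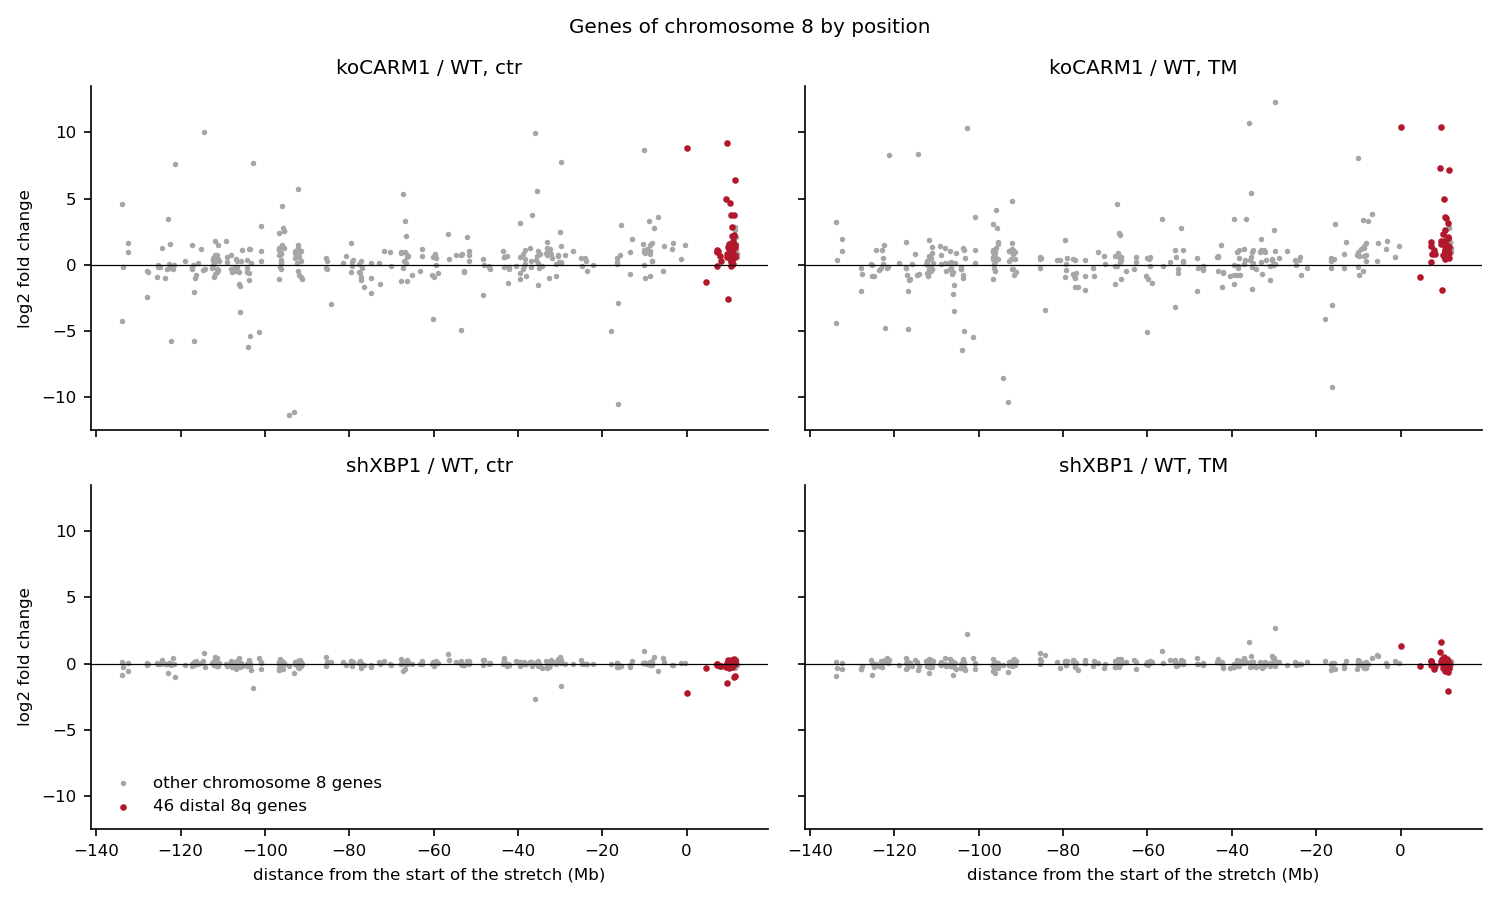
Log2 fold change against WT of 354 genes of chromosome 8 with a mean of 8 CPM or more, by the distance of the gene's start from the start of the stretch (Mb), for koCARM1 (upper panels) and shXBP1 (lower panels) under ctr and TM. The 46 distal 8q genes (red) lie mostly above 0 in koCARM1, as do most of the 24 grey genes just before them (median 1.15 under ctr), and around 0 in shXBP1 (medians −0.011 and 0.068).

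Below the minimum of 8 CPM a further 37 genes of the stretch had enough counts to be tested. Of these 24 were called higher in koCARM1 (37.5% of all genes tested were) and 4 lower (36.9%) under ctr, and 26 higher (38.4%) and 4 lower (36.8%) under TM, with medians of 1.22 and 1.43. They too belong to the stretch that this contrast had chosen, and the counts are a description. In shXBP1 none was called under ctr by edgeR or DESeq2 (1 higher and 2 lower at an unadjusted p under 0.05 in edgeR), and 1 was called higher under TM.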

How the data were processed

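Sequencing covered the 3′ ends of mRNA as 75 nt single reads in 18 libraries. The authors' alignment to hg19 used bowtie2, and the expected counts of each Ensembl gene that the authors deposited were estimated by RSEM (version 1.2.3 in the submitters' processing notes), which are whole numbers without normalization. The Ensembl release and the strand setting are not given in the sources used here. Libraries were grouped by the genotype and treatment in their labels, with 0 columns left unmapped. Symbols and GRCh37 positions came from GENCODE and were found for 55501 of 57736 genes. The other 2235 could not be placed.

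The 46 members, the function lists, the markers and the tests were chosen with earlier results of these data known. Members had a mean of at least 8 CPM, computed from library totals, whereas levels in the text are CPM scaled by TMM factors. All fits were made in edgeR 4.0.16 under R 4.3.3, loading limma 3.58.1. The filter filterByExpr at a minimum count of 10 kept 17317 genes, all 46 members among them. Each comparison was a quasi-likelihood F test with TMM factors, fitted to its own groups, with Benjamini-Hochberg adjustment across the 17317 genes and a threshold of 0.05. A standard error here is the absolute log2 fold change over the root of F. The interaction was tested in the 4 groups concerned. With 3 libraries a group, an exact permutation test cannot go below 0.1, so none is given. Library totals of 9367462 to 13917212 set the counting precision, and replicate pairs differed by more than counting error (chi-square per degree of freedom 1.84 to 6.89).

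Values in every library are given for the 8 members highest and 4 lowest in koCARM1, those called in shXBP1 or in an interaction (at most 6 a comparison, by adjusted p) and the largest changes with TM in WT. EEF1D was added after its values were seen. Alternatives were DESeq2 1.42.0 and its size factors, library totals, no filter, 10 counts in every library, a single fit, other minimum levels, an FDR of 1%, a replicate block and each library left out. The scripts were tested on simulated data. Chromosome 8 sequences are not printed.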

Additional observations from a re-analysis of the deposited data

Results flagged for a closer look

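The response of distal 8q genes to tunicamycin differed between koCARM1 and WT at the adjusted threshold for the interaction term of edgeR's quasi-likelihood fit in 18 of the 46, being above that in WT in 16 (10.5% of all genes tested) and below it in 2 (12.4%). With 1 library left out 15 to 20 were above and 0 to 2 below. The term is the difference of the contrasts that had chosen the stretch, so these calls are a description. The 6 with the smallest p were THEM6 (term 0.90 on the log2 scale), SCRIB (0.76), JRK (0.94), CHRAC1 (0.43), PLEC (0.68) and ARC (2.26). Between shXBP1 and WT the response was called different in 1 gene, SLC52A2 (−0.72), being above that in WT in 0 (0.364% of all genes) and below it in 1 (1.67%).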

How the results depend on the processing

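Scaling by library totals gave medians of koCARM1 against WT of 0.94 under ctr and 1.21 under TM, of koCARM1 against shXBP1 of 0.94 and 1.13, and of TM against ctr of −0.22 in WT and 0.028 in koCARM1, with 4 members lower in koCARM1 under ctr. DESeq2's size factors moved the median under ctr to 1.15 and a single fit of all libraries moved it to 1.16. With at least 10 counts in every library the medians were 0.99 (koCARM1 against WT, ctr), 0.99 and 1.26 (against shXBP1, ctr and TM) and −0.048 (TM in WT). With a minimum of 16 CPM no member was called lower in koCARM1 against WT or shXBP1, and the medians of TM were −0.036 in WT and −0.10 in shXBP1, with 4 CPM −0.052 and −0.049, and with the mean taken after TMM scaling −0.043 in WT. The mean over the 12 WT and shXBP1 libraries, an alternative chosen after seeing the data, gave 0.85 and 1.14 against WT, 0.90 and 1.21 against shXBP1 and −0.036 for TM in WT.

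Counts of few calls moved most. Of shXBP1 against WT under ctr, a single fit of all libraries called 2 higher and 3 lower, no filter 3 and 2, and an FDR of 1% none lower. Under TM the single fit called 4 higher, no filter 5, DESeq2 1 lower, and an FDR of 1% 1 higher and 1 lower. An FDR of 1% left 14 falls with TM in WT, 2 rises in shXBP1 and no shXBP1 interaction term called below 0, where no filter called 1 above 0. The single fit called 12 rises with TM in koCARM1. The koCARM1 interaction was called below 0 in 1 member with 10 counts in every library, library totals, no filter or an FDR of 1%. Why these values moved was not tested.

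With each library left out in turn the medians ran from 1.10 to 1.17 (koCARM1 against WT, ctr), 1.25 to 1.35 (koCARM1 against shXBP1, TM), −0.27 to −0.12 (TM in WT) and −0.20 to −0.090 (TM in shXBP1). For shXBP1 against WT the calls ran from 0 to 3 higher and 0 to 1 lower under ctr, the most without WT replicate 3, and from 2 to 4 higher and 1 to 4 lower under TM, with 4 higher without WT replicate 2 or shXBP1 replicate 1 and 1 lower without WT or shXBP1 replicate 3. Falls with TM in WT ran from 17 to 18, against 22 with all libraries. Rises with TM in shXBP1 ran from 2 (without TM replicate 2) to 4, and terms called below 0 from 0 to 2 for koCARM1 (0 without WT TM replicate 3 or WT ctr replicate 1) and from 0 to 1 for shXBP1. The other 534 of the values taken again kept their direction and their side of the threshold, or moved by less than the spread.

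The replicate numbers are shared by all groups, but samples of the same number did not deviate together (correlations of their deviations −0.048 to 0.039), so they were not treated as pairs. With a replicate block 4 members were called higher and 3 lower in shXBP1 against WT under TM, and TM lowered 21 and raised 6 in WT. The block ended the calls of ZFP41 in shXBP1 (adjusted p = 0.0526), as given above, and of ARC with TM in WT (0.0549). Of 598 single-gene values 42 lost the threshold under some alternative and 0 reversed. Library totals of 9367462 to 13917212 counts leave genes with a few counts, such as NDRG1 outside koCARM1, without a usable fold change.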
